A study of Mus musculus with 8 samples.

Results

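The 10 mRNAs described here have long been cited as targets of the RNA-binding protein HuR: *Vegfa*, *Hif1a*, *Myc*, *Ccnd1*, *Trp53*, *Cdkn1a*, *Sirt1*, *Mcl1*, *Bcl2* and *Xiap*. They were taken by gene symbol, and all 10 were found among the 33641 genes, where they account for 58 of 105129 transcripts. Expression was measured by poly(A) RNA-seq of interscapular brown adipose tissue (BAT) from C57BL/6 mice aged 28 weeks. 3 libraries (A7, A8 and A12) are labelled wild-type and are called control, and 5 libraries (A24, A25, A26, A29 and A31) are labelled as adipocyte-specific HuR knockouts, *Adipo-HuR-/-*. Each library carries its own animal number. The knockout was made with a floxed HuR gene and Cre under the adiponectin promoter, so that endothelial, immune, stromal and nerve cells of the depot keep HuR. According to the methods, controls in this colony were littermates that lacked either Cre or a pair of floxed alleles, and which of these a control library came from is not given in the sources used here. The legend of the study gives the group sizes the other way round from the labels, and the labels were followed.

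HuR, encoded by *Elavl1*, binds AU-rich and U-rich stretches, mostly in 3′ untranslated regions (UTRs), and is best known for slowing the decay of the mRNAs it holds and for altering their translation. Many of its best studied targets control blood vessel growth, the cell cycle and cell death, and were described largely in cultured or tumour cells. RNA-seq reads the abundance of an mRNA, and neither its decay rate, its translation nor its binding by HuR was measured in these libraries.

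*Elavl1* itself, at 50.6, 48.0 and 49.2 CPM (counts scaled to a common library size by TMM factors) in A7, A8 and A12, stood at 61.9, 47.3, 43.4, 61.3 and 61.2 CPM in A24, A25, A26, A29 and A31. The groups overlapped, and the libraries labelled *Adipo-HuR-/-* were not lower (log2 fold change 0.16, SE 0.162, adjusted p = 0.667 by edgeR's quasi-likelihood test). The fold change ran from 0.11 to 0.46 under the 19 alternatives, and was 0.38 when scaled by total counts. It was 0.46 for the transcript with the highest count. The gene total therefore gave no check of the labels, and directions below are those between libraries as labelled. A count over the whole gene can miss the loss of a few exons and includes the other cell types of the depot.

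Totals were 60622522, 51751002 and 50673814 counts in A7, A8 and A12, and 18264754, 17558090, 67498055, 50893173 and 58727739 in A24, A25, A26, A29 and A31. The brown adipocyte markers were abundant everywhere, with *Ucp1*, the uncoupling protein of brown fat, between 4250 CPM in A25 and 11400 CPM in A8. Skeletal muscle RNA set libraries apart. The 15 muscle markers summed to 3910 CPM in A7, 2450 in A8 and 442 in A31, against 59.7 in A12, 52.1 in A24, 34.4 in A25, 46.0 in A26 and 47.9 in A29. *Myh4*, a fast myosin heavy chain and the most abundant of them, was at 1050 CPM in A7, 457 in A8 and 106 in A31, and at no more than 0.113 in the others. All 15 were lower in *Adipo-HuR-/-*, and 2 passed the threshold given below: *Myh7*, a slow myosin heavy chain (log2 fold change −7.86, adjusted p = 0.0474, with 1 count in A12 and 0 to 13 in *Adipo-HuR-/-*), and *Myl1*, a myosin light chain (−2.28, adjusted p = 0.0474). Limma voom called 0 of the 15, DESeq2's Wald test 4 and edgeR's likelihood ratio test 5. *Myh7* was called in 7 of 15 alternatives that tested it and *Myl1* in 6 of 19. Without A7 they were at −5.58 (adjusted p = 0.131) and −2.03 (0.137), and *Myl1* was at −0.71 among the low-muscle libraries, A12 against A24, A25, A26 and A29. That fit has 1 control, whose spread is taken from the other group, and says little about whether a call holds. Leaving out A24, A25, A26 or A29 also ended both calls (adjusted p 0.0719 to 0.128), and leaving out A8 or A31 ended that of *Myl1* (0.0778 and 0.0748). The part of muscle RNA in the values of the HuR targets was not tested, and values with a muscle term or in the low-muscle libraries stand beside them. In whole tissue, fewer cells of a type and less RNA per cell cannot be told apart.

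Of the 10 HuR targets, 0 passed the threshold (adjusted p at most 0.05 and at least 1.5-fold, edgeR's quasi-likelihood test), beside 105 of 14851 genes tested (0.707%), of which 69 were lower (0.465%) and 36 higher (0.242%) in *Adipo-HuR-/-*. The other tools run, limma voom with quality weights, the likelihood ratio test of edgeR and the Wald test of DESeq2, also called 0 of the 10. Over all 14851 genes they called 157, 655 and 823, in that order. At an unadjusted p under 0.05 the quasi-likelihood test counted 1 of 10, *Xiap*, beside 2531 genes (17.0%). In CPM the groups did not overlap for 1 of 10, again *Xiap*, which was lower, beside 1701 genes in either direction (11.5%) and 904 that were lower (6.09%). By direction alone, 7 of the 10 were lower and 3 higher, with a median log2 fold change of −0.21, beside 7413 lower and 7438 higher and a median of 0.00 over all genes tested. Scaling by total counts moved all genes by a median of 0.23 on the log2 scale, and under it 6 of the 10 were lower and their median was −0.04. Over all genes tested 4132 were then lower and 10719 higher, and the later counts by direction under this scaling stand beside these.

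**Figure D1:**
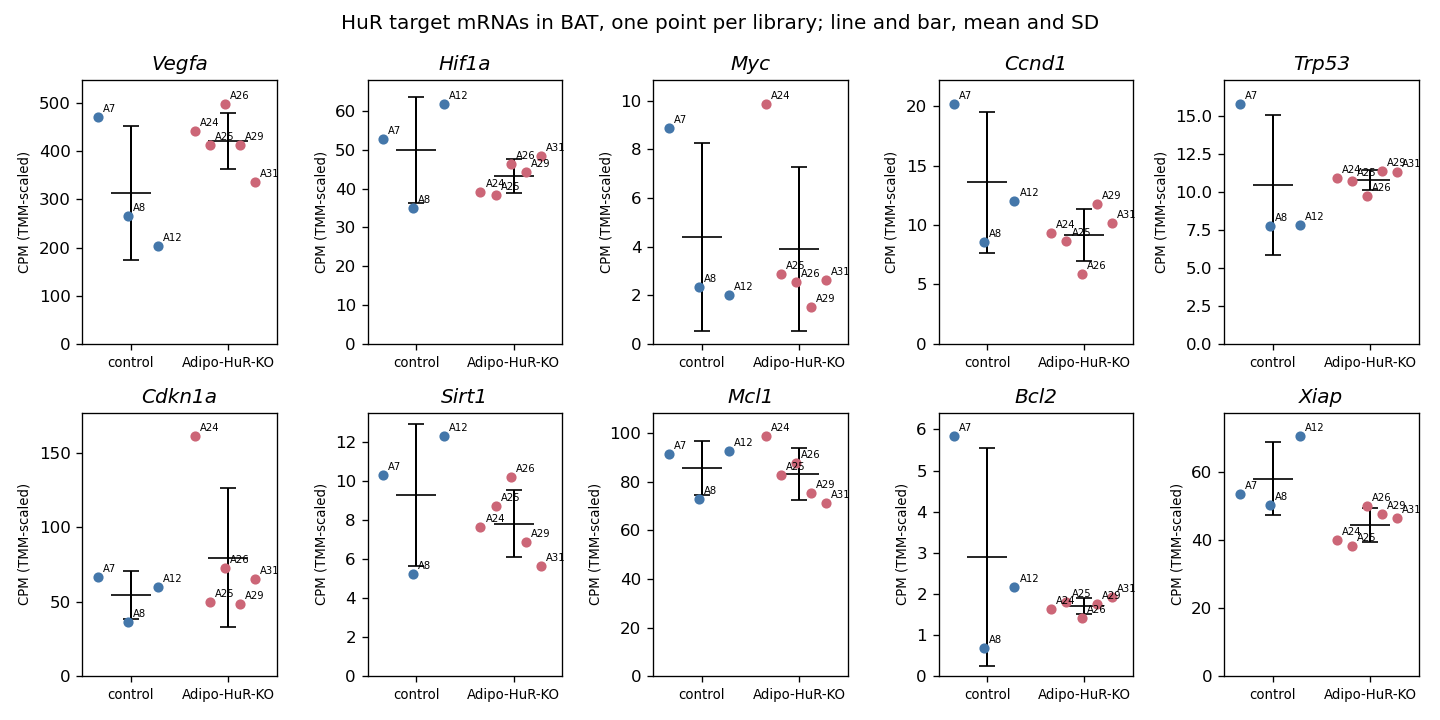
CPM of each of the 10 mRNAs (vertical axes, linear from 0) in the 3 control and 5 Adipo-HuR-KO libraries, 1 point per library with its name, with the group mean as a line and the SD as a bar. The groups overlap in 9 panels and are apart only for Xiap.

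The genes of angiogenesis and hypoxia, *Vegfa* and *Hif1a*, lay on opposite sides of 0 and did not pass the threshold. *Vegfa* (chr17:46016993-46032369, minus strand, GRCm38), the main growth factor for endothelial cells, was at 470, 266 and 204 CPM in A7, A8 and A12 and at 441, 413, 498, 413 and 337 CPM in A24, A25, A26, A29 and A31. All 5 *Adipo-HuR-/-* libraries lay above A8 and A12, but A7 stood above 4 of them. The log2 fold change was 0.42 (95% interval −0.16 to 1.00, adjusted p = 0.450), with 0.72 when muscle RNA was a covariate, 1.11 among the low-muscle libraries, 0.84 without A7, and 0.19 without A12 and for the transcript with the highest count. None of these passed the threshold, and the interval of the fold change includes 0. *Hif1a* (chr12:73901375-73947530, plus strand) encodes the oxygen-regulated subunit of hypoxia-inducible factor 1. It was at 52.9, 35.0 and 61.8 CPM in A7, A8 and A12 and at 39.0, 38.3, 46.3, 44.4 and 48.4 CPM in the *Adipo-HuR-/-* libraries. These 5 values lay within the range of the controls (log2 fold change −0.21, 95% interval −0.62 to 0.21, adjusted p = 0.629). The fold change was −0.29 with muscle RNA as a covariate, −0.56 among the low-muscle libraries, −0.40 without A8, −0.02 without A12 and −0.01 when scaled by total counts.

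Around *Vegfa*, 1 of 9 tested VEGF ligands and receptors passed the threshold. *Vegfd*, a VEGF family ligand known for its part in lymphatic vessel growth, fell from 3.53, 4.18 and 3.43 CPM in A7, A8 and A12 to 1.47, 1.14, 0.978, 1.84 and 1.2 CPM (log2 fold change −1.49, SE 0.260, adjusted p = 0.0416). It was lower in all 5 libraries than in any control. Its fold change lay between −1.79 and −1.25 under the 19 alternatives, 7 of which kept it past the threshold. With muscle RNA as a covariate it was −1.48 with an adjusted p of 0.203, and leaving out A7, A8, A24, A25, A26, A29 or A31 each took the adjusted p over 0.05, to between 0.0505 and 0.118. Of the 8 tested HIF subunits and regulators, 0 passed (edgeR's quasi-likelihood test, 0 also at an unadjusted p under 0.05 and 0 by each of the other tools). The 2 with the lowest p were *Egln3*, a prolyl hydroxylase that marks HIF subunits for destruction (log2 fold change −0.31, adjusted p = 0.517), and *Epas1*, the HIF-2 subunit (0.22, adjusted p = 0.542). *Egln3* was at 28.3 CPM in A7 and between 14.5 and 17.9 CPM in the other libraries, and its fold change was 0.07 without A7, 0.02 with muscle RNA as a covariate and 0.06 among the low-muscle libraries. That of *Epas1* was 0.44 when scaled by total counts and 0.09 among the low-muscle libraries. Among 19 hypoxia response genes 17 were lower, with a median log2 fold change of −0.25, and 1 passed. The number lower was 11 of 19 when scaled by total counts (median −0.06) and 10 of 19 among the low-muscle libraries (median −0.04). With muscle RNA as a covariate it was 12 of 19 (median −0.25), and without A24 and A25 16 of 19 (median −0.56). The gene that passed was *Mxi1*, a MAX-binding repressor that opposes MYC. It stood at 57.7, 41.1 and 34.2 CPM in the controls and at 24.6, 19.4, 22.4, 22.8 and 19.6 CPM in *Adipo-HuR-/-*, without overlap (log2 fold change −1.03, SE 0.179, adjusted p = 0.0416). Its fold change was −0.84 (adjusted p = 0.257) with muscle RNA as a covariate and −0.62 among the low-muscle libraries, and it lost the call without A7, A25, A26, A29 or A31, at adjusted p of 0.0827 to 0.119.

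*Myc* encodes a transcription factor of growth and division (chr15:61985391-61990374, plus strand) and was at 8.87, 2.33 and 2.01 CPM in A7, A8 and A12 and at 9.87, 2.89, 2.55, 1.53 and 2.64 CPM in A24, A25, A26, A29 and A31. A single library of each group, A7 and A24, was high, and the others lay between 1.53 and 2.89. The log2 fold change was −0.21 with a 95% interval of −1.64 to 1.22 (adjusted p = 0.901). Its direction turned with the libraries used: it was 0.82 without A7, 0.41 with muscle RNA as a covariate and 1.03 among the low-muscle libraries, but −0.89 without A24 and −0.98 without A24 and A25. *Fos* and *Atf3*, early response genes chosen after their values were seen, were at 4.32 and 21 CPM in A7 and at 4.06 and 57.8 CPM in A24. *Fos* was at most 0.890 CPM in the other libraries, while *Atf3* was also at 41.4 CPM in A12 and 23.3 CPM in A25, both above A7, and neither of these libraries was high in *Myc*. *Cxcl1* and *Plaur*, chosen in the same way, were at 0.939 and 2.85 CPM in A7 and at 4.62 and 7.28 CPM in A24. In the other libraries they were at no more than 0.193 and 1.42 CPM. The part of an early response in the *Myc* values was not tested.

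*Ccnd1* (chr7:144929931-144939925, minus strand), cyclin D1, which carries cells from G1 towards S phase, was at 20.2, 8.58 and 12 CPM in A7, A8 and A12 and at 9.31, 8.68, 5.87, 11.8 and 10.2 CPM in *Adipo-HuR-/-*. All 5 lay below A7 and A12, and A8 lay within them. The log2 fold change of −0.57 (95% interval −1.21 to 0.07, adjusted p = 0.350) shrank to −0.17 without A7, and was −0.39 with muscle RNA as a covariate and −0.43 among the low-muscle libraries. *Mxi1*, which passed, was counted above with the hypoxia response genes. Of 10 tested MYC network genes, 0 passed by edgeR's quasi-likelihood test and by the other tools, with 1 at an unadjusted p under 0.05. That was *Mlxip*, a glucose-responsive partner of MLX (log2 fold change 0.57, adjusted p = 0.279), followed by *Mlxipl*, also known as ChREBP (0.51, adjusted p = 0.465), which was at 0.21 without A12, 0.22 for its transcript with the highest count, 0.79 without A7, 0.85 with muscle RNA as a covariate and 1.53 among the low-muscle libraries. Of 12 cyclin D, CDK and inhibitor genes, 0 passed by the same test and by the other tools, with 1 at an unadjusted p under 0.05: *Rbl2*, a relative of the retinoblastoma protein, at 26.1 to 42.8 CPM in the controls and 43.4 to 67.9 CPM in *Adipo-HuR-/-* (0.55, adjusted p = 0.212, and 0.33 among the low-muscle libraries). *Cdk4*, the kinase partner of cyclin D1, had a log2 fold change of 0.39 (adjusted p = 0.331). Proliferation markers were scarce, with *Mki67* at no more than 2.38 CPM in any library.

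In the p53 axis, *Trp53* (chr11:69580359-69591873, plus strand), the p53 transcription factor, was at 15.8, 7.75 and 7.81 CPM in A7, A8 and A12 and at 10.9, 10.7, 9.73, 11.4 and 11.3 CPM in *Adipo-HuR-/-*. The 5 *Adipo-HuR-/-* values were close together and fell between A7 and the other controls (log2 fold change 0.05, 95% interval −0.48 to 0.58, adjusted p = 0.941). The fold change was 0.47 without A7, −0.12 without A8 or without A12, 0.34 with muscle RNA as a covariate and 0.45 among the low-muscle libraries. *Cdkn1a* (chr17:29090976-29100727, plus strand) encodes p21, a CDK inhibitor induced by p53. Its level was 67.0, 36.5 and 60.0 CPM in A7, A8 and A12 and 161, 50, 72.9, 48.6 and 65.1 CPM in A24, A25, A26, A29 and A31. A24 stood apart, and the other 4 overlapped the controls. The log2 fold change of 0.54 (95% interval −0.33 to 1.42, adjusted p = 0.532) fell to 0.11 without A24 and to 0.18 by limma voom, and was 0.40 with muscle RNA as a covariate and 0.47 among the low-muscle libraries.

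Of 22 tested p53 regulators and targets, 12 were lower and 10 higher, with a median log2 fold change of −0.12 (0.11 when scaled by total counts, 0.07 among the low-muscle libraries and −0.26 without A24 and A25), and 2 passed, both lower. *Ccng1*, cyclin G1, a p53 target, stood at 208, 195 and 191 CPM in the controls and at 91.1, 96.4, 124, 126 and 97.6 CPM in *Adipo-HuR-/-* (log2 fold change −0.89, SE 0.158, adjusted p = 0.0438). *Trp53inp1*, another p53 target, with roles in autophagy and cell death, stood at 21.1, 17.6 and 35.1 CPM in the controls and at 8.40, 12.2, 12.5, 10.1 and 10.7 CPM in *Adipo-HuR-/-* (−1.19, SE 0.226, adjusted p = 0.0486). Neither overlapped between groups. Over the 19 alternatives *Ccng1* ranged from −0.96 to −0.67 and was called in 6, and *Trp53inp1* ranged from −1.70 to −0.84 and was called in 7. *Ccng1* lost the call without any 1 of the 8 libraries (adjusted p 0.0536 to 0.119). *Trp53inp1* kept it only without A8 (0.0268), and lost it without each of the others (0.0655 to 0.119). With muscle RNA as a covariate *Ccng1* was at −0.90 (adjusted p = 0.215) and *Trp53inp1* at −1.43 (0.0749).

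*Sirt1* (chr10:63319005-63381704, minus strand), an NAD-dependent deacetylase, was at 10.3, 5.24 and 12.3 CPM in A7, A8 and A12 and at 7.67, 8.73, 10.2, 6.88 and 5.67 CPM in *Adipo-HuR-/-*. All 5 fell inside the control range (log2 fold change −0.25, 95% interval −0.88 to 0.37, adjusted p = 0.704), and the fold change was 0.01 without A12, −0.53 without A8, −0.07 when scaled by total counts, −0.60 with muscle RNA as a covariate and −0.56 among the low-muscle libraries. Of 11 sirtuin and NAD synthesis genes, 0 passed by edgeR's quasi-likelihood test, with 2 at an unadjusted p under 0.05, and the other tools called 0 or, by DESeq2, 1. *Naprt*, which makes NAD from nicotinic acid, was at 11.6, 16.6 and 10.7 CPM in the controls and at 29.1, 29.7, 19.5, 17.9 and 18.8 CPM in *Adipo-HuR-/-*, without overlap (0.82, adjusted p = 0.119, and 0.53 without A24 and A25). *Nmnat1*, which encodes a nuclear enzyme of NAD synthesis, had a log2 fold change of −0.54 (adjusted p = 0.208), which was −0.35 without A8, −0.29 when scaled by total counts, −0.22 with muscle RNA as a covariate and 0.02 among the low-muscle libraries.

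Among the anti-apoptotic genes, *Mcl1* (chr3:95658788-95663176, plus strand) was at 91.3, 72.9 and 92.8 CPM in A7, A8 and A12 and at 98.6, 82.6, 87.7, 75.4 and 71.2 CPM in *Adipo-HuR-/-*. The groups overlapped (log2 fold change −0.04, 95% interval −0.40 to 0.31, adjusted p = 0.916). It was 0.16 when scaled by total counts, −0.17 with muscle RNA as a covariate and −0.11 among the low-muscle libraries. *Bcl2* (chr1:106538178-106714274, minus strand), the founding member of its family, was scarce, at 5.83, 0.684 and 2.17 CPM (360, 27 and 104 counts) in A7, A8 and A12 and at 1.64, 1.80, 1.42, 1.76 and 1.92 CPM (29, 38, 96, 93 and 127 counts) in *Adipo-HuR-/-*. The controls spanned the whole range and enclosed all 5 of the others (log2 fold change −0.77, 95% interval −1.90 to 0.36, adjusted p = 0.486). Without A7 the fold change was 0.25, without A8 −1.22 (not past the threshold either), with muscle RNA as a covariate −0.41 and among the low-muscle libraries −0.40.

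*Xiap* (chrX:42059679-42109656, plus strand), an inhibitor of caspases, was at 53.6, 50.4 and 70.6 CPM in A7, A8 and A12 and at 40.2, 38.5, 50, 47.9 and 46.6 CPM in *Adipo-HuR-/-*. In CPM every *Adipo-HuR-/-* library was below every control, although A26 and A8 were only 50 against 50.4 CPM. Per transcript length (TPM) the groups overlapped. A8 was then the lowest library at 8.11 TPM, against 8.98 to 11.9 TPM in *Adipo-HuR-/-*. The log2 fold change was −0.38 (SE 0.160, 95% interval −0.74 to −0.03), with an adjusted p of 0.260 by edgeR's quasi-likelihood test. It stayed negative under the 19 alternatives, from −0.68 to −0.10, with adjusted p from 0.159 to 0.940, and was −0.50 with muscle RNA as a covariate, −0.68 among the low-muscle libraries, −0.22 without A12, −0.16 when scaled by total counts and −0.10 for the transcript with the highest count.

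**Figure D2:**
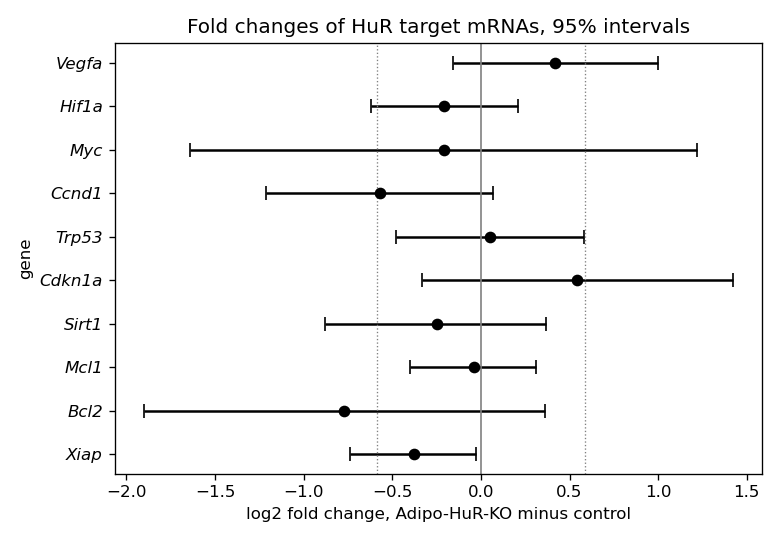
Log2 fold change of each mRNA, Adipo-HuR-KO minus control (horizontal axis), as points with 95% intervals from edgeR's fit; dotted lines mark 1.5-fold in either direction. The interval of Xiap, −0.74 to −0.03, lies below 0, and the other 9 include 0.

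Of 13 tested BCL2 family genes, 0 passed by edgeR's quasi-likelihood test. At an unadjusted p under 0.05 by that test there were 5, all higher, beside 17.0% of all genes tested. In all, 11 were higher, with a median log2 fold change of 0.41. The number higher was 13 when scaled by total counts (median 0.62) and 9 without A24 and A25 (median 0.36). The other tools called 0 (limma voom), 1 (DESeq2) and 2 (edgeR's likelihood ratio test). *Bik*, a pro-apoptotic BH3-only gene, was at 0.194, 0.380 and 0.251 CPM in the controls and at 0.508, 1.04, 0.696, 1.04 and 1.65 CPM in *Adipo-HuR-/-* (1.87, adjusted p = 0.0920). *Hrk*, another BH3-only gene, was at no more than 0.341 CPM in any library (2.37, adjusted p = 0.177, with 1.12 among the low-muscle libraries and 4.18 without A12). Of 13 IAP and caspase genes, 0 passed by the same test, with 2 at an unadjusted p under 0.05 and 1 call by each of the other tools. *Htra2*, a mitochondrial protease that counters IAP proteins, had a log2 fold change of 0.44 (adjusted p = 0.198), and 0.71 among the low-muscle libraries.

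A further 34 mRNAs reported as HuR targets were listed, of which 30 were tested. *Fos*, *Atf3*, *Cxcl1* and *Plaur*, named above beside *Myc*, belong to this list. By edgeR's quasi-likelihood test and by the other tools 0 passed, with 2 at an unadjusted p under 0.05, and 12 were lower and 18 higher (median log2 fold change 0.18, or 0.36 when scaled by total counts, −0.15 without A24 and A25 and −0.05 by limma voom). *Ccne1*, cyclin E1, was at 2.72, 4.03 and 2.07 CPM in the controls and at 1.35, 1.99, 1.53, 1.88 and 1.14 CPM in *Adipo-HuR-/-* (−0.90, adjusted p = 0.158). Its fold change was −0.60 without A8 and −0.29 among the low-muscle libraries. *Bcl2l1*, which encodes the anti-apoptotic BCL-XL, was at 27.6, 29.6 and 35.0 CPM in the controls and at 42.9, 48.8, 47.9, 36.2 and 35.1 CPM in *Adipo-HuR-/-* (0.46, adjusted p = 0.197, and 0.26 with muscle RNA as a covariate). Among 9 tested proteins that bind AU-rich elements, 1 passed: *Elavl3*, a relative of HuR best known from neurons, rose from 0.745, 1.06 and 0.836 CPM to 2.03, 3.46, 3.33, 5.32 and 6.07 CPM (log2 fold change 2.21, SE 0.381, adjusted p = 0.0407). Over the 19 alternatives its fold change ran from 2.01 to 2.48, with 9 calls. It lost the call without A7, A12, A25, A26, A29 or A31 (adjusted p 0.0676 to 0.122) and with muscle RNA as a covariate (2.44, adjusted p = 0.104).

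Levels between genes were compared per transcript length, on the TPM scale (mean ± SD over all 8 libraries). *Vegfa* was the most abundant at 301 ± 120 TPM and exceeded every other member in all 8 libraries. *Cdkn1a* followed at 51.2 ± 24 and *Mcl1* at 35.4 ± 8.75 TPM, which changed places in 2 of the 8 libraries and did not differ beyond their spread. *Hif1a* (14.5 ± 4.03) and *Xiap* (11.8 ± 2.52 TPM) also overlapped, with *Hif1a* above in 7 of 8. *Trp53* was at 8.31 ± 3.17 TPM. *Ccnd1* (4.19 ± 2.14), *Sirt1* (4.05 ± 1.5) and *Myc* (2.82 ± 2.25 TPM) could not be separated, and *Bcl2* was lowest at 0.467 ± 0.390 TPM, below *Myc* in all 8 libraries.

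At the level of transcripts, 38 of the 58 passed the filter on low counts and 0 passed the threshold by edgeR's quasi-likelihood test, beside 4 of 41808 transcripts (0.00957%). At an unadjusted p under 0.05 there was 1 of the 38, beside 3415 in all (8.17%). It was *Vegfa-208*, a retained-intron transcript, at a mean of 5.53 ± 3.07 CPM in the controls and 11.3 ± 4.03 CPM in *Adipo-HuR-/-* (log2 fold change 0.98, adjusted p = 0.588). Retained-intron transcripts together took 15.9%, 16.3% and 10.6% of the *Vegfa* counts in A7, A8 and A12 and 13.0%, 13.2%, 16.7%, 15.4% and 14.8% in *Adipo-HuR-/-*, which overlapped. The division of a gene's reads over its transcripts is an estimate, and *Myc-201* and *Myc-205* carried the same values. Each had a mean of 1.22 CPM in the controls and 0.773 CPM in *Adipo-HuR-/-* (log2 fold change −0.72), with a 3′ UTR of 442 bases. *Myc-204*, taken below as the *Myc* transcript with the highest count, was at 1.11 and 1.29 CPM (0.14).

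The 3′ UTR of the most abundant coding transcript was searched on its sense strand for ATTTA, for the nonamer TTATTTATT (which contains ATTTA) and for runs of 7 T. All 10 mRNAs held ATTTA, beside 66.7% of 13940 tested genes with a coding transcript and a UTR, and all 10 were above the median of 1.221 ATTTA per kb. The highest densities were 4.826 per kb in *Vegfa*, 4.379 in *Hif1a* and 4.297 in *Sirt1*, and the lowest was 1.868 in *Ccnd1*. A run of 7 T was in 8 of 10, beside 40.9% of genes, and was missing from *Cdkn1a* and *Sirt1*. Among genes with a UTR of similar length (ratio of the shorter to the longer at least 0.8) the share with such a run ran from 14.5% for *Myc* and 18.3% for *Trp53* to 86.3% for *Xiap* and 88.1% for *Bcl2*. The nonamer was in 3 of 10, beside 7.50% of genes. The UTRs differ in length, from 345 bases in *Myc* to 5086 in *Bcl2*, and longer ones hold more motifs: the nonamer was in 9.20% of genes with a UTR of similar length to that of *Vegfa*, in 8.90% for *Hif1a* and in 21.4% for *Bcl2*. A match describes the letters and shows no binding. *Vegfa* held 1 copy, and *Hif1a* and *Bcl2* 2 each, with overlapping copies counted. A window of 27 bases around the first copy in each of these 3 mRNAs, with that copy in capitals (in *Hif1a* another copy overlaps it and runs into the lower case), shows the kind of AU-rich stretch they carry, written 5′ to 3′ on the transcript strand. They lie in the 3′ UTR at chr17:46017167-46017193 (minus), chr12:73946006-73946032 (plus) and chr1:106542996-106543022 (minus) on GRCm38.
Vegfa: tgttatcatTTATTTATTggtgctact
Hif1a: tgcacctttTTATTTATTtatttttgg
Bcl2: aaaaaagatTTATTTATTtaagacagt

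Fold changes of these 3 were 0.42, −0.21 and −0.77 on the log2 scale. Over all 1041 genes with the nonamer, 575 were lower and 466 higher, with a median of −0.06, and 7 passed the threshold. Over the 12899 without it, 6467 were lower and 6432 higher, with a median of 0.00, and 93 passed. With muscle RNA as a covariate the medians were −0.07 and 0.01, and 2 and 10 passed. Scaled by total counts they were 0.17 and 0.23.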

How the data were processed

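Poly(A) RNA-seq libraries of BAT from 8 mice were used, 3 control and 5 *Adipo-HuR-/-* by their labels. The authors deposited estimated counts per transcript, not normalized. Reads had been mapped in CLC Genomics Workbench; whether it also made these estimates, and on which genome build, is not given in the sources used here. Positions, lengths and UTRs came from GENCODE (GRCm38), in which 103723 of 105129 identifiers were found without their version. Estimated counts of a gene were added up, and the sums rounded to integers (79.1% were already within 0.02 of one). Genes passing edgeR's filterByExpr were compared by its quasi-likelihood F-test after TMM scaling, with Benjamini-Hochberg adjustment over 14851 genes, and transcripts likewise over 41808. CPM uses TMM-scaled totals, and TPM divides transcript counts by length. The fit was tested on simulated data. R 4.3.3, edgeR 4.0.16, limma 3.58.1, DESeq2 1.42.0 and Python 3.11.15 with pandas 2.3.3, scipy 1.17.1 and matplotlib 3.10.9 were used.

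The 10 mRNAs and the gene lists were chosen with earlier results of these data known. Named genes are the 10, *Elavl1*, of every other list those past the threshold (at most 5) or else the 2 with the lowest p, and the most abundant gene of every marker list. Other names were chosen after their values were seen. A gene that this rule names is not reported here. Alternatives were other scalings, tests and filters, the transcript with the highest count, a muscle covariate (mean log2 CPM of the markers), a looser threshold and fewer libraries. Intervals are for the fold change between the groups, from a spread between these mice that was moderated over all genes.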

Additional observations from a re-analysis of the deposited data

Results flagged for a closer look

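In the *Adipo-HuR-/-* group, the highest value of 3 genes lay far from the other 4 by Dixon's ratio of gap to range (above 0.71). *Myc* was at 9.87 CPM in A24 (ratio 0.837) and *Cdkn1a* at 161 CPM in A24 (0.783). *Myh4*, a muscle gene, was at 106 CPM in A31 (0.999). Of 41 genes examined in this way, chance would flag about 1 in 20. These were the HuR targets and the genes named by the rule above. Genes chosen after their values were seen were left out, among them *Fos*, *Cxcl1* and *Plaur*, which were also highest in A24 of this group. Controls were too few for this comparison.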

How the results depend on the processing

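The number of HuR targets past the threshold was 0 under the 19 refitted alternatives and at an adjusted p of at most 0.10 without a fold limit; the lowest adjusted p of any was 0.106, for *Bcl2* without A8. Of 190 alternative fold changes, 180 kept their direction or were 0 and 10 turned. *Myc* turned to 0.17 (transcript with the highest count), 0.41 (muscle covariate), 1.03 (low-muscle libraries) and 0.82 (without A7), *Mcl1* to 0.16 (total counts) and 0.02 (without A12), *Bcl2* to 0.25 (without A7), *Trp53* to −0.12 (without A8 or without A12) and *Sirt1* to 0.01 (without A12). The cause was not tested.

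Leaving out 1 library gave ranges of 0.19 to 0.84 for *Vegfa*, −0.40 to −0.02 for *Hif1a*, −0.89 to 0.82 for *Myc*, −0.81 to −0.17 for *Ccnd1*, 0.11 to 0.72 for *Cdkn1a*, −0.12 to 0.47 for *Trp53*, −0.53 to 0.01 for *Sirt1*, −0.14 to 0.02 for *Mcl1*, −1.22 to 0.25 for *Bcl2* and −0.47 to −0.22 for *Xiap*. The number lower was 7, and 4 to 8 with a library left out, 4 of them without A7.

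The 105 genes past the threshold became 823 by DESeq2's Wald test, 655 by edgeR's likelihood ratio test, 16 with the transcript with the highest count, 15 with the muscle covariate, 5 without A24 and A25, 4 among the low-muscle libraries and 492 at an adjusted p of at most 0.10 without a fold limit. With 1 library left out they ranged from 10 (without A26) to 190 (without A12), with 13 without A7, 15 without A25, 14 without A29 and 17 without A31. The cause was not tested. The nonamer was in 3 of the 10 also when every annotated 3′ UTR was searched. *Bcl2* and *Myc* rest on the fewest counts, 27 to 360 for *Bcl2* and 61 to 548 for *Myc*, and so have the least counting precision of the 10.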

Other observations

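Markers of other cells of the depot gave the setting of the HuR targets. Of 9 endothelial markers, all 9 were higher in *Adipo-HuR-/-* and 0 passed the threshold (edgeR's quasi-likelihood test, 1 at an unadjusted p under 0.05, and 0 by DESeq2, limma voom and edgeR's likelihood ratio test). Their sum was 478, 395 and 517 CPM in A7, A8 and A12 and 387, 527, 600, 605 and 568 CPM in A24, A25, A26, A29 and A31. *Cdh5*, the most abundant, which encodes an adhesion protein of endothelial junctions, had a log2 fold change of 0.16, which was 0.37 when scaled by total counts and −0.15 among the low-muscle libraries. With muscle RNA as a covariate 7 of the 9 were higher, and among the low-muscle libraries 5. The 7 fibroblast markers were all lower (5 of 7 when scaled by total counts) and 0 passed by the same test or the other tools, with 1 at an unadjusted p under 0.05. Their sum was 391, 185 and 543 CPM in the controls and 320, 279, 131, 232 and 256 CPM in *Adipo-HuR-/-*, and *Col3a1*, a fibrillar collagen, led them (−1.09, adjusted p = 0.198, with −0.61 without A12 and −1.77 among the low-muscle libraries).

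Of 5 tested Schwann cell markers, 3 were lower and 2 higher, and 2 were lower and 3 higher when scaled by total counts. At an unadjusted p under 0.05 (edgeR's quasi-likelihood test) there were 1 lower and 1 higher, beside 17.0% of all genes tested. The groups did not overlap for 1 lower and 1 higher marker, beside 11.5% of all genes tested. The list held 1 gene past the threshold. *S100b*, a calcium-binding protein of glia that adipocytes also make, was at 132, 138 and 82.5 CPM in the controls and at 56.1, 39.7, 43.8, 52.0 and 46.1 CPM in *Adipo-HuR-/-*, without overlap (log2 fold change −1.31, SE 0.193, adjusted p = 0.0250 by edgeR's quasi-likelihood test). It was called in 10 of the 19 alternatives, with fold changes from −1.51 to −0.79. The controls rich in muscle RNA, A7 and A8, were its highest libraries. The fold change was −1.03 (adjusted p = 0.193) with muscle RNA as a covariate and −0.79 among the low-muscle libraries, which hold 1 control, and leaving out A7, A25, A26, A29 or A31 each ended the call (0.0551 to 0.106). The part of muscle RNA in it was not tested. Macrophage markers, led by *Lyz2*, summed to between 39.6 CPM in A8 and 133 CPM in A12, and lymphocyte markers, led by *Cd79a*, to no more than 3.54 CPM. The 7 mural markers, led by *Rgs5*, summed to 490, 483 and 456 CPM in the controls and to 362, 364, 411, 388 and 407 CPM in *Adipo-HuR-/-*. All 5 sums lay below every control, but the groups overlapped for each single marker (0 of 7 apart, beside 11.5% of all genes tested). Of the 7 markers 5 were lower (3 when scaled by total counts) and 0 passed by edgeR's quasi-likelihood test. By that test 2 were at an unadjusted p under 0.05, with 0 calls by limma voom and 1 each by DESeq2 and edgeR's likelihood ratio test. Brown adipocyte markers, led by *Fabp4*, summed to between 14700 CPM in A25 and 31900 CPM in A8.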
